A study of Mus musculus with 36 samples.

Results

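The integrated stress response was followed through 10 genes in mouse pancreatic fibroblasts grown beside tumour cells. The genes were Eif2ak3, Atf4, Atf3, Atf5, Ddit3, Ppp1r15a, Trib3, Chac1, Sesn2 and Asns, each found in the count table by its symbol, 10 of the 39017 genes listed there. All 10 passed the filter on low counts and were among the 14439 genes tested. RNA sequencing covered 36 libraries of fibroblasts from the C57BL/6 strain in 9 groups of 4. In 8 groups the fibroblasts had shared a dish for 48 h with a GFP-bearing tumour line, namely clone E, H, K, M, N, T or V, each a tumour sub-clone, or KPC1, a line the labels do not explain. The tumour cells had been removed by flow sorting on GFP, so any tumour cell that had lost GFP would have stayed with the fibroblasts. The ninth group was fibroblasts in mono-culture, and the labels do not say whether these were sorted too. Nothing in the labels says that the 4 libraries of a group came from separate cultures, so p-values measure the spread between these libraries, which may be technical.

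When a cell lacks amino acids or haem, carries viral RNA or accumulates unfolded proteins, a kinase phosphorylates the translation factor eIF2. General translation then slows, while the mRNA of the transcription factor ATF4 is translated better. ATF4 induces genes for amino acid supply, among them Asns, and further factors of the same bZIP class, and a phosphatase subunit encoded by Ppp1r15a closes the loop by removing the phosphate. Transcript levels of Atf4 and of its targets are a common readout of this response, but the phosphorylation of eIF2 and the translation of Atf4 were not measured in these libraries.

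With clone H, clone V, KPC1 and clone T, most of the 10 genes were higher than in mono-culture, and with clone M most were lower. With clones E, K and N, 1 or 2 of the 10 were called. A single gene, Atf5, fell with every tumour line, also where the other ATF factors rose. Its call with clone K was lost in 7 of 8 fits that left out a library. Eif2ak3 was called with no line in the main fit, but lower with KPC1 and clone V under several alternatives.

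Library totals lay between 12532122 and 21985538 counts. The lowest count of any of the 10 genes in any library was 33, for Atf3. Counting error was not set against the spread between libraries gene by gene. It may be as large as that spread where libraries were closest. The SD was 1.78% of the mean for Ddit3 with clone E and 3.65% for Eif2ak3 in mono-culture. The fibroblast label was checked with 9 markers, whose summed level ran from 10884 to 32040 CPM (counts relative to the scaled library total) over the 36 libraries. Of 10 epithelial markers, the sum was 1.06 to 1.82 CPM in mono-culture and 18.5 to 798 CPM in the co-cultures. Most of the co-culture sum came from the keratins Krt8, Krt18 and Krt19. Cdh1 had at most 8 counts in mono-culture and up to 837 in co-culture. Its mean was 0.258 CPM in mono-culture and ran from 0.0304 CPM with clone M to 30.9 CPM with KPC1. Ocln had at most 2 counts in mono-culture and up to 99 in co-culture. Epcam, Cldn4, Cldn7 and Esrp1 had at most 9 counts in any library. Immune markers (6) summed to 5.25 to 32.9 CPM with Cd3e at 0 counts in every library, and endothelial markers (4) to 1.12 to 6.33 CPM. The part of the epithelial RNA in the results below was not tested. In bulk RNA, fewer cells that express a gene and less RNA per cell cannot be told apart.

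Promoters of the 10 genes were read for 3 elements linked to this response, since several of the genes moved together. The core of the C/EBP-ATF composite element, TGATGNAA, to which ATF4 binds with a C/EBP partner, was present in the promoters of Asns, Atf3, Chac1 and Trib3 (4 of 10 genes, against 4.51% of 27025 genes with a promoter of the same length). The cyclic AMP response element TGACGTCA was present in the Ppp1r15a promoter (1 of 10 genes, against 2.03% of all). The endoplasmic reticulum stress element, a motif of other unfolded protein response genes, was in none of the 10 and in 0.137% of all genes. Both strands were searched from 250 bases before to 50 bases after each start site, all 10 genes had an entry (Atf5 had 2 promoters), and a match of letters is not a binding site. The 4 promoters with a match before the start site are shown because these genes, with Trib3, had the widest spans of group means among the 10. Each is the 250 bases before the start, 5′ to 3′ on the strand of the gene, from RefSeq (GRCm38.p6), with the matched bases in capitals.
Asns promoter, chr6:7693210-7693459, minus strand: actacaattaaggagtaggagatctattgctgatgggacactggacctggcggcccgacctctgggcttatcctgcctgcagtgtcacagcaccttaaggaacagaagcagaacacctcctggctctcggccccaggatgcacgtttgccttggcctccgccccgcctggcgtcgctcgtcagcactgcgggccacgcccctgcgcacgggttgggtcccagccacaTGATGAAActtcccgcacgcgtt
Chac1 promoter, chr2:119350992-119351241, plus strand: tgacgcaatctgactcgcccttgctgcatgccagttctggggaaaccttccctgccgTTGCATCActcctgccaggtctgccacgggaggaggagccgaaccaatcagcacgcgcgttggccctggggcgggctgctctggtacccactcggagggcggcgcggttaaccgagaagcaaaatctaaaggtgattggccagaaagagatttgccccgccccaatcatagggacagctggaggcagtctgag
Atf3 promoter, chr1:191183334-191183583, minus strand: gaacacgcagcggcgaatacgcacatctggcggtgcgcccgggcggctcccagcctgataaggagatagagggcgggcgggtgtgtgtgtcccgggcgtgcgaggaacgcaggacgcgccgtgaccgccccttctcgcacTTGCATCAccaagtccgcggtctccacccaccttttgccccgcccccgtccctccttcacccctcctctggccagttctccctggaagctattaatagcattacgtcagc
Ppp1r15a promoter, chr7:45526269-45526518, minus strand: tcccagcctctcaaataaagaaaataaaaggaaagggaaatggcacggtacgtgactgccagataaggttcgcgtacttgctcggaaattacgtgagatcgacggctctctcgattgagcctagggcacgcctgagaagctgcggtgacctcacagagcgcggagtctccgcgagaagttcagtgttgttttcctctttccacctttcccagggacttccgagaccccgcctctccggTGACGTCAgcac
The match in Asns began 23 bases before the start site on the strand of the gene. Those in Atf3 and Chac1 began 110 and 193 bases before it and lie on the opposite strand, so that TTGCATCA is printed there. The TGACGTCA of Ppp1r15a reads the same on both strands and began 12 bases before the start. In Trib3 the match lay 15 bases into the transcribed part and its sequence is not shown.

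Each co-culture was compared with mono-culture to ask what the tumour line changed in the fibroblasts, in a single edgeR quasi-likelihood model of all 36 libraries with p-values adjusted by Benjamini-Hochberg over the 14439 genes. A gene was called higher or lower at an adjusted p under 0.05. The 8 comparisons share the 4 mono-culture libraries. In the sample titles these are numbered as a block after all co-culture libraries. If that numbering marks separate handling, its effect cannot be told apart from that of co-culture. Differences among the 7 clones were tested in the same fit of all 36 libraries, by an F-test whose contrasts left out mono-culture. It called 9 of the 10 genes, all but Eif2ak3, where it called 67.5% of all genes tested.

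**Figure D1:**
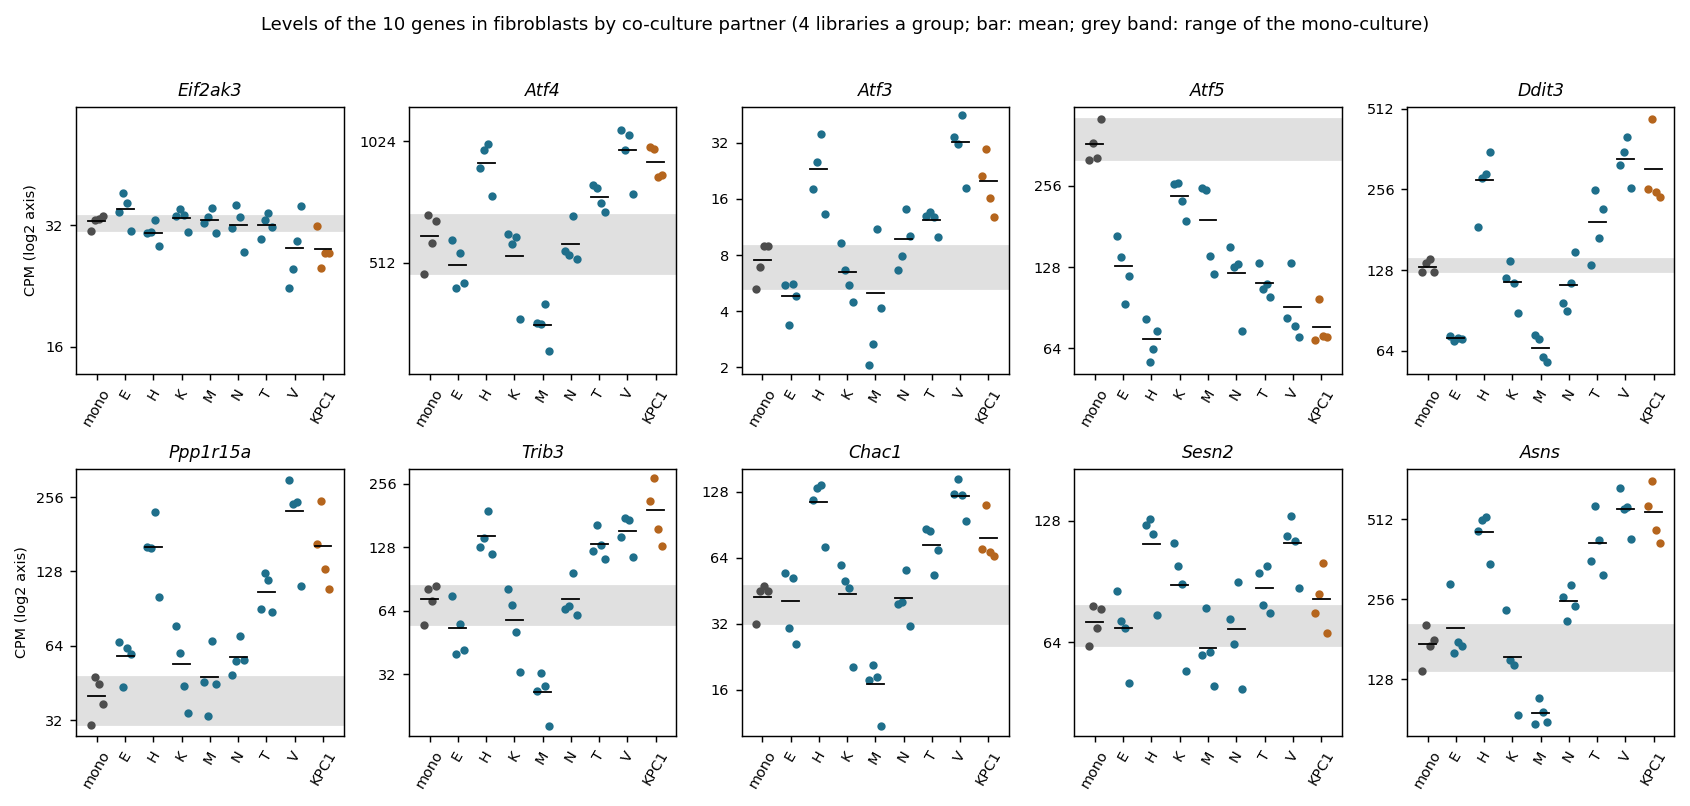
Level of each of the 10 genes in every library, in CPM on a log2 axis, for mono-culture and the 8 co-cultures; points are libraries, bars are means of 4, and the grey band is the range of the mono-culture. Atf5 lies below the band in all 32 co-culture libraries, Eif2ak3 stays near it, and the other genes lie mostly above it with clones H, T, V and KPC1.

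Eif2ak3 (chr6:70844515-70905245, plus strand of GRCm38, protein coding) encodes PERK, the eIF2 kinase of the endoplasmic reticulum. Its level was 31.05, 33.01, 33.2 and 33.8 CPM in the mono-culture libraries. The group means ran only from 27.9 CPM with KPC1 to 35.1 CPM with clone E, a ratio of 1.26. No tumour line gave a call, nor did the F-test among clones (adjusted p = 0.136). The nearest were KPC1, with a log2 fold change of -0.23 ± 0.10 (SE) and adjusted p = 0.0554, and clone V at -0.22 ± 0.10 and adjusted p = 0.064. Both were called lower without scaling beyond library size, at -0.33 with KPC1 (adjusted p = 0.00608) and -0.32 with clone V (adjusted p = 0.00729). They were also called with at least 10 counts in every library and in the 2 limma fits described under processing (adjusted p from 0.00482 to 0.0304). KPC1 was called with DESeq2 (adjusted p = 0.0394) and RLE scaling (adjusted p = 0.0441) too. The test among clones called Eif2ak3 without scaling (adjusted p = 0.0345) and in the limma fits (adjusted p = 0.0231 and 0.0236). The clone V libraries ranged from 22.4 to 35.7 CPM, and without its replicate 4, the highest, the fold change with clone V was -0.36 at adjusted p = 0.00318 and the F-test gave adjusted p = 0.0109. Without KPC1 replicate 1 the KPC1 value was -0.31 at adjusted p = 0.019.

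Atf4 (chr15:80255184-80257541, plus strand, protein coding) encodes the central transcription factor of the response. The mono-culture libraries had 481, 674, 574 and 651 CPM. With clone V they were at 1095, 974, 1061 and 759 CPM, with KPC1 at 993, 978, 834 and 843 CPM, and with clone H at 881, 974, 1009.5 and 750.0 CPM. All 12 of these libraries lay above the highest mono-culture library. The log2 fold changes in these lines were 0.71 ± 0.14 (clone V), 0.62 ± 0.14 (KPC1) and 0.60 ± 0.14 (clone H), and the adjusted p was at most 0.000496.

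With clone M, by contrast, Atf4 stood at 363, 360.3, 405 and 309 CPM, below each mono-culture library, and had fallen by 0.73 ± 0.14 on the log2 scale (adjusted p = 0.000225). With clone T it was 796, 784, 718 and 686 CPM, above each mono-culture library, at 0.33 ± 0.14 (adjusted p = 0.0494). That call was lost when any of 5 libraries was left out, with adjusted p from 0.0593 to 0.197, the last without mono-culture replicate 1. It was also lost with no scaling beyond library size (adjusted p = 0.0959) and with at least 10 counts in every library (adjusted p = 0.0624). The 2 limma fits did not call it either (adjusted p = 0.0905 and 0.0895). Clones E, K and N gave 0.85 to 0.96 times the mono-culture level with no call. In the order of mean levels, from clone V at 972 CPM to clone M at 359 CPM, 2 of 8 neighbouring groups differed, clone T from mono-culture and clone E from clone M (adjusted p = 0.02).

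Atf3 (chr1:191170296-191218039, minus strand, protein coding) encodes a bZIP factor induced by ATF4 and also by many acute stimuli. It was the scarcest of the 10, with 5.23, 6.93, 8.90 and 8.96 CPM in mono-culture. It stood at 34.3, 31.4, 45.1 and 18.4 CPM with clone V, at 18.02, 25.2, 35.8 and 13.3 CPM with clone H, and at 21.1, 29.8, 16.2 and 12.8 CPM with KPC1. The groups did not overlap the mono-culture, and the folds were 4.31, 3.07 and 2.67 (log2 2.11 ± 0.38, 1.62 ± 0.37 and 1.41 ± 0.37, adjusted p at most 0.00178). With clone T all 4 libraries were also above mono-culture, at 9.96 to 13.6 CPM, but the value of 0.72 ± 0.38 was not called (adjusted p = 0.113). In an edgeR fit of only the 8 libraries compared it was called, at 0.72 (adjusted p = 0.00449). The same kind of fit called Atf3 lower with clone E, at -0.62 (adjusted p = 0.0321), where the main fit did not (adjusted p = 0.23). With clone M, 3 libraries were at 2.05, 2.67 and 4.18 CPM and replicate 3 at 11.1 CPM, and without that library Atf3 was called lower, by -1.35 at adjusted p = 0.0115. No neighbouring groups in the order of Atf3 levels differed (0 of 8).

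Atf3 is itself an immediate early gene in many cells, so 10 others were read beside it. In each co-culture 2 to 5 of these 10 were higher and 0 lower. Of all genes, 10.4% to 30.5% were called higher and 8.69% to 28.9% lower, depending on the line. The 10 had a median of 0.44 to 1.25 on the log2 scale. The medians were 0.85 to 1.04 with clones H and V and KPC1, where Atf3 was called higher, and 0.44 to 1.25 with the other 5 lines, where it was not called in the main fit. Egr2, a zinc finger factor, showed the largest called change of the 10 over the mean of the 7 clones, 1.70 (adjusted p = 4.48e-05), and Junb, an AP-1 subunit, the smallest at 0.88 (adjusted p = 0.00374). Their part in the Atf3 result was not tested.

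Atf5 (chr7:44812256-44816658, minus strand, protein coding) encodes the closest relative of ATF4. The mono-culture libraries had 319, 370.2, 324 and 454 CPM. The level was 82.3, 57.0, 63.5 and 73.9 CPM with clone H and 68.4, 97.1, 71.0 and 70.4 CPM with KPC1. These were 5.30-fold and 4.78-fold below mono-culture, with log2 fold changes of -2.41 ± 0.24 (adjusted p = 3.04e-09) and -2.26 ± 0.24 (adjusted p = 4.45e-09).

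Atf5 was also called lower with clone V (-2.02 ± 0.24), clone T (-1.71 ± 0.23), clone N (-1.59 ± 0.23), clone E (-1.50 ± 0.23) and clone M (-0.94 ± 0.23), with adjusted p of at most 0.00275. With clone K it was 260.0, 262, 226 and 189 CPM, again below each mono-culture library, at -0.65 ± 0.23 (adjusted p = 0.0425). The clone K call was lost in 7 of 8 fits that left out a library of the pair, all but that without mono-culture replicate 1, with adjusted p from 0.0506 to 0.148. In all, 32 of 32 co-culture libraries were below the lowest mono-culture library. Of all genes tested, 3.19% were called lower in each of the 8 co-cultures. Among the clones the levels differed as well (F-test adjusted p = 8.77e-07). Atf5 overlaps Nup62, a nuclear pore gene on the opposite strand with a mean of 100.4 CPM, by 571 bases. The library kit kept strand, but whether counting used it is not given in the sources used here, so reads in the shared stretch could belong to either.

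Ddit3 (chr10:127290774-127296288, plus strand, protein coding) encodes CHOP, a bZIP factor linked to cell death under prolonged stress. It was tight in mono-culture, at 125, 136, 140.2 and 126 CPM. With clone E it was tighter still at 72.8, 69.8, 71.2 and 70.7 CPM, and with clone M it was 73.0, 70.6, 60.7 and 58.2 CPM. Both groups lay wholly below mono-culture, at log2 fold changes of -0.89 ± 0.21 (adjusted p = 0.00132) and -1.004 ± 0.207 (adjusted p = 0.000555). With clone E, Ddit3 was thus called lower where Atf4, at -0.23 ± 0.14, was not.

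At the other end, Ddit3 was 316, 352, 400.2 and 259 CPM with clone V, 258, 469.8, 249.4 and 240.2 CPM with KPC1, and 186, 283, 291 and 353 CPM with clone H. The folds over mono-culture were 2.52, 2.31 and 2.11, with adjusted p of at most 5.79e-05. With clone T the libraries were at 134, 255, 169 and 217 CPM, of which the first lay within the mono-culture range, and the value was 0.56 ± 0.20 (adjusted p = 0.0236). It was no longer called without mono-culture replicate 1 or 4 or without clone T replicate 2 or 4, with adjusted p from 0.0517 to 0.12. Nor was it called with no scaling beyond library size (adjusted p = 0.0509) or in the 2 limma fits (adjusted p = 0.0711 and 0.0694). Ddit3 shares 68 bases with Mars, a tRNA synthetase gene on the opposite strand with a mean of 147.7 CPM, with the same doubt about strand. A second annotated entry named Ddit3, on the same strand, overlaps it by 2925 bases. How reads in that stretch were counted is not given in the sources used here.

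Ppp1r15a (chr7:45522916-45526268, minus strand, protein coding) encodes GADD34, which brings a phosphatase to eIF2 and so reverses the response. It showed the largest rise of the 10. From 30.7, 47.7, 45.0 and 37.2 CPM in mono-culture it went to 299.7, 239.7, 245 and 111 CPM with clone V, a 5.58-fold rise (log2 2.48 ± 0.29, adjusted p = 3.6e-08). With KPC1 it was 165, 246, 131 and 108 CPM and with clone H 161, 159, 222 and 101 CPM. These were 4.05-fold and 4.01-fold above mono-culture (adjusted p = 8.23e-07 and 1.33e-06), and clone T gave a 2.63-fold rise (adjusted p = 0.000168).

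The mono-culture mean of Ppp1r15a, 40.1 CPM, was the lowest of the 9 groups, as for no other of the 10 genes. Clones E, K, M and N gave values of 0.25 to 0.53 on the log2 scale, none of them called, with standard errors of 0.28. In edgeR fits of only the 8 libraries compared, Ppp1r15a was called higher with clone E (0.54, adjusted p = 0.021) and clone N (0.53, adjusted p = 0.012). Over the mean of the 7 clones it was called higher, at 1.09 ± 0.23 (adjusted p = 0.000285). Its constitutive counterpart Ppp1r15b was higher with clones H, T and V and with KPC1, by 0.53 to 0.75, and not called with the other 4 lines.

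Trib3 (chr2:152337422-152344032, minus strand, protein coding) encodes a pseudokinase that binds ATF4 and restrains it. It had 54.8, 80.7, 71.3 and 83.6 CPM in mono-culture. With clone M it was 26.6, 32.4, 28.02 and 18.1 CPM, a 2.76-fold fall (log2 -1.46 ± 0.26, adjusted p = 9.08e-05). With KPC1 it was 211, 271, 157 and 129.7 CPM, a 2.65-fold rise (log2 1.40 ± 0.25, adjusted p = 2.02e-05). From lowest to highest group mean this was a 7.31-fold span, the widest of the 10 genes. Clones V, H and T also raised it, by 1.07 ± 0.25, 0.99 ± 0.25 and 0.86 ± 0.25. Neighbouring groups differed at 2 of 8 places, clone T from mono-culture (adjusted p = 0.00466) and clone E from clone M (adjusted p = 0.0111).

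Chac1 (chr2:119351229-119354381, plus strand, protein coding) encodes an enzyme that degrades glutathione. Its mono-culture libraries had 31.8, 45.2, 47.5 and 45.3 CPM. It was 126, 147, 123 and 94.5 CPM with clone V, 117, 133, 138 and 71.4 CPM with clone H and 17.7, 20.8, 18.2 and 10.9 CPM with clone M. None of these libraries overlapped the mono-culture range, and the log2 fold changes were 1.53 ± 0.28 (adjusted p = 2.73e-05), 1.44 ± 0.28 (adjusted p = 7.66e-05) and -1.32 ± 0.29 (adjusted p = 0.00102). It was called higher with KPC1 at 0.89 ± 0.28 and with clone T at 0.79 ± 0.28 (adjusted p = 0.0179). The clone T call was lost without mono-culture replicate 1 (adjusted p = 0.0677) and without clone T replicate 1 (adjusted p = 0.0532).

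Sesn2 (chr4:132492032-132510501, minus strand, protein coding) encodes a sestrin, a leucine sensor that holds back mTORC1. Its span was the narrowest among the 9 genes that differed between clones, 1.82-fold. From 62.8, 78.5, 69.5 and 77.2 CPM in mono-culture it went to 118, 132, 114 and 87.0 CPM with clone V and 125, 129, 119 and 74.6 CPM with clone H. Those were rises of 0.65 ± 0.20 (adjusted p = 0.00674) and 0.63 ± 0.20 (adjusted p = 0.00845), although clone H replicate 4 lay within the mono-culture range. No other line gave a call in the main fit, and KPC1, the line with the highest Trib3 level, gave 0.19 ± 0.20 (adjusted p = 0.436). In an edgeR fit of only the 8 libraries compared, Sesn2 was called higher with clone T, at 0.28 (adjusted p = 0.0384). Neighbouring groups differed at 0 of 8 places. A related sestrin gene, Sesn3, fell over the mean of the 7 clones, by 0.70 on the log2 scale (adjusted p = 4.54e-06).

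Asns (chr6:7675169-7693254, minus strand, protein coding) encodes asparagine synthetase, which makes asparagine from aspartate and glutamine. The mono-culture libraries had 137, 205, 171 and 180.2 CPM. The level was 671, 562, 569.6 and 431 CPM with clone V, 577, 715, 467 and 417 CPM with KPC1, and 464, 509, 521 and 349 CPM with clone H. With clone T it was 356, 573, 428 and 316 CPM. All 16 libraries of these lines exceeded the highest mono-culture library.

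The folds of Asns over mono-culture were 3.22 with clone V (log2 1.69 ± 0.23, adjusted p = 2.65e-07), 3.14 with KPC1 (1.65 ± 0.23, adjusted p = 3.87e-07), 2.66 with clone H (1.41 ± 0.23, adjusted p = 5.47e-06) and 2.41 with clone T (1.27 ± 0.22, adjusted p = 2.64e-05). With clone M it was 86.9, 109, 96.3 and 88.5 CPM, below each mono-culture library, and 1.82-fold lower (log2 -0.87 ± 0.22, adjusted p = 0.00484). Between the extremes lay a 5.87-fold span of group means. The clone N libraries were 262, 212, 291 and 242 CPM, each above mono-culture, yet the value of 0.54 ± 0.22 missed the threshold at adjusted p = 0.0547. It passed when mono-culture replicate 2 (adjusted p = 0.0438) or clone N replicate 2 (adjusted p = 0.0442) was left out. Clones E and K gave 0.21 ± 0.22 and -0.15 ± 0.22 with no call, and clone E replicate 1, at 294 CPM, stood apart from the other 3 libraries of its group, at 160.2 to 176 CPM. Over the mean of the 7 clones Asns was 1.5-fold higher (0.58 ± 0.18, adjusted p = 0.00663), and without mono-culture replicate 1 the value of 0.48 was no longer called (adjusted p = 0.0532). In the order of means a single step of 8 was called, between clone T at 418 CPM and clone N at 252 CPM (adjusted p = 0.0373), and no neighbouring pair among the 4 lines above it was called. The number of called steps was 0 without clone N replicate 1, 2 or 4 or clone T replicate 2 or 3, and 2 without clone K replicate 4.

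**Figure D2:**
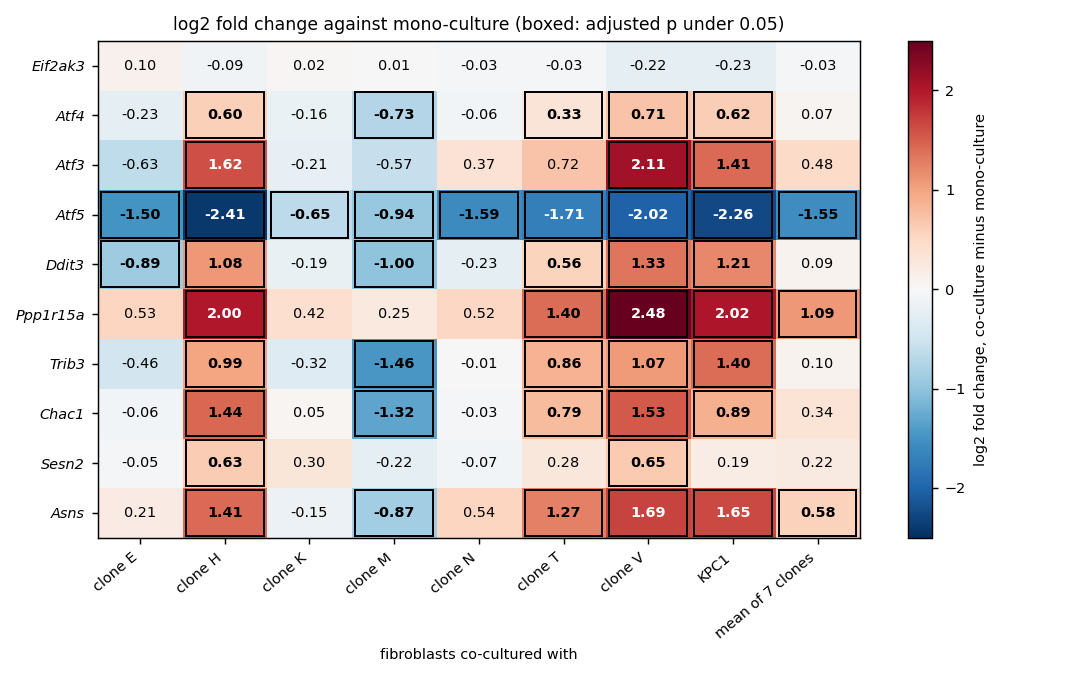
log2 fold change of the 10 genes (rows) in each co-culture and in the mean of the 7 clones (columns) against mono-culture, with red for higher, blue for lower and boxes for an adjusted p under 0.05. The columns of clones H, T, V and KPC1 are red apart from Atf5 and Eif2ak3, that of clone M is mostly blue, and the Atf5 row is blue and boxed throughout.

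Taken by tumour line, clones H and V gave the most calls, with 8 of the 10 genes higher and 1 lower in each. Of all tested genes, 54.2% were called with clone H (27.8% higher and 26.4% lower) and 58.3% with clone V (29.4% higher and 28.9% lower). With KPC1, 7 were higher and 1 lower, beside 59.0% of all genes called (30.5% higher and 28.5% lower). With clone T, 6 were higher and 1 lower, beside 49.8% called (25% higher and 24.7% lower), but 3 of the 6 were lost without mono-culture replicate 1. The median log2 fold change of the 10 genes was 1.03 with clone H, 1.20 with clone V, 1.05 with KPC1 and 0.64 with clone T, where that of all genes lay between 0.00 and 0.01.

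With clone M, 6 of the 10 were lower (Atf4, Ddit3, Trib3, Atf5, Chac1 and Asns) and 0 higher, while 23% of all genes were called with this line (12.2% higher and 10.8% lower). The median over the 10 was -0.80. With clone E, 2 were lower (Ddit3 and Atf5) and 0 higher, beside 32% of all genes called (16.5% higher and 15.5% lower). With clones K and N, Atf5 alone of the 10 was called. Of all genes, 19.1% were called with clone K (10.4% higher and 8.69% lower) and 39.0% with clone N (19.7% higher and 19.2% lower), and the medians over the 10 were -0.16 and -0.03. The share of genes called with clone N was larger than with clone M, yet clone N gave 1 call among the 10 genes and clone M 6.

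Counts of genes whose libraries did not overlap the mono-culture were similar. All 4 libraries lay above each mono-culture library for 8 of the 10 genes with clone V (25.8% of all genes), 7 with clone H (26.1%), 7 with KPC1 (27.4%), 6 with clone T (24%) and 2 with clone N (20.2%), and for 0 with clones E (18.1%), K (14.2%) and M (15.1%). All 4 lay below for 6 genes with clone M (16.9%) and 2 with clone E (19.1%). Atf5 alone was wholly below with clones H (25.3%), K (14.6%), N (20.4%), T (24.9%) and V (26.4%) and with KPC1 (26.2%).

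Atf4, Ddit3, Trib3, Chac1 and Asns were each higher with at least 1 line and lower with another, as were 5.35% of all genes tested. None of the 10 was higher with every line, as were 3.42% of all genes. The mean over the 7 clones, which sets lines with opposite values against each other, called 2 of the 10 higher (Ppp1r15a and Asns) and 1 lower (Atf5), beside 49.2% of all genes (24.3% higher and 24.9% lower).

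The order of the lines by epithelial RNA was not that by the stress genes. The summed epithelial markers had a median of 516 CPM with clone N, the highest of the 9 groups, where 0 of the 10 genes were higher, and of 79.6 CPM with clone V, the lowest of the co-cultures, where 8 were. With clones H, T and M the medians were 162, 453 and 213 CPM. The summed fibroblast markers had medians of 15008 to 17113 CPM with clones H, T, V and KPC1, against 21731 CPM in mono-culture and 22694 to 27227 CPM with clones E, K, M and N. The markers of that sum did not move together. With clones H, T, V and KPC1, the means of Col1a1, Col1a2, Col3a1, Pdgfra, Dcn and Lum were below mono-culture. Those of Vim, Thy1 and Pdgfrb were above it. The part of these markers in the results was not tested.

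Levels of different genes were compared per length, as RPKM (reads scaled by gene length and library size). In every group Atf4 had the highest mean of the 10 genes, at 214 RPKM with clone M to 551 RPKM with clone V. The ratio of Asns to Atf4 within a library was 0.249 ± 0.0106 in mono-culture (SD, n = 4) and 0.506 ± 0.0854 with KPC1, 0.491 ± 0.0268 with clone V, 0.478 ± 0.114 with clone T and 0.434 ± 0.0244 with clone H. All 16 of these libraries had a higher ratio than the highest mono-culture library, at 0.26. So did every library with clone N (0.338 to 0.409) and clone E (0.278 to 0.431), where Asns itself was not called. With clone K the ratio was 0.246 ± 0.0581 and with clone M 0.228 ± 0.0279. The ratio of Ddit3 to Atf4 ran from 0.253 ± 0.0292 with clone E to 0.609 ± 0.0684 with clone V, and that of Ppp1r15a to Atf4 from 0.0415 ± 0.00562 in mono-culture to 0.138 ± 0.0336 with clone V. Atf5 went the other way. Its ratio to Atf4 was 0.587 ± 0.0691 in mono-culture, 0.504 ± 0.178 with clone M and 0.0744 ± 0.0195 with clone H.

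**Figure D3:**
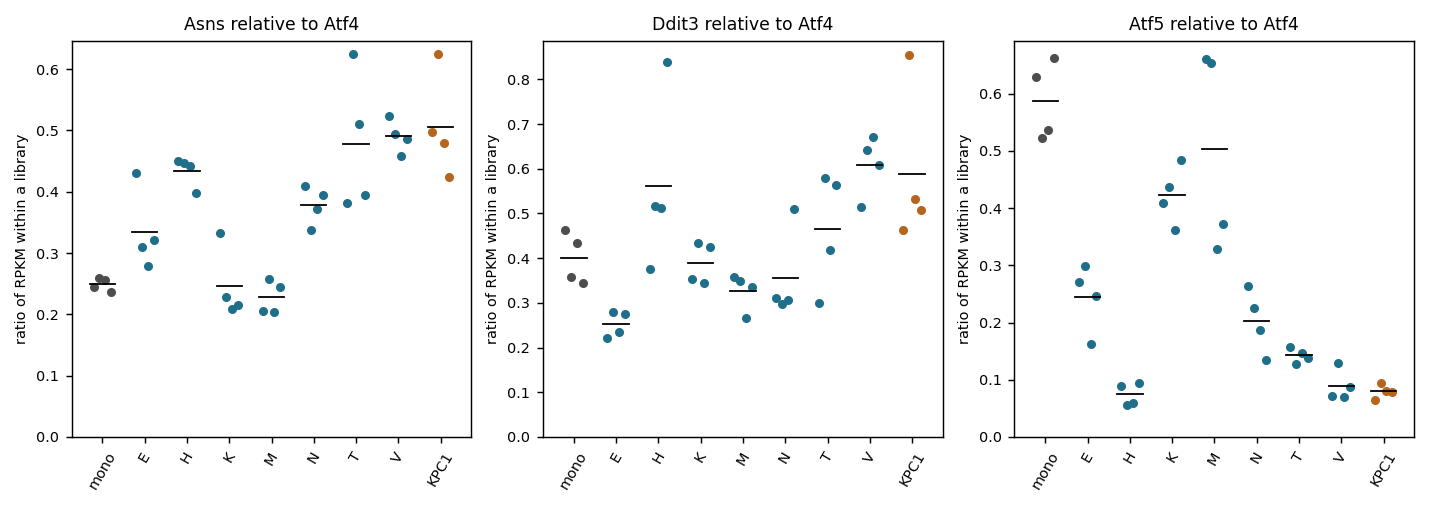
RPKM of Asns, Ddit3 and Atf5 divided by that of Atf4 in the same library, for mono-culture and the 8 co-cultures; points are libraries and bars are means of 4. The Asns ratio is above the mono-culture in every library with clones E, H, N, T, V and KPC1, and the Atf5 ratio drops from 0.587 in mono-culture to 0.0744 with clone H.

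Pearson correlations of log2 CPM were computed over the 36 libraries, and again over the deviation of each library from its group mean. The libraries share tumour line, depth and replicate number, so the values describe the data and carry no p. Asns and Atf4 had r = 0.945 over the libraries and 0.784 within groups, and Trib3 and Asns 0.956 and 0.852. Chac1 followed Atf4 in the same way, at 0.958 and 0.851. Ddit3 differed, with 0.892 against Atf4 over the libraries but 0.268 within groups, and -0.00788 against Sesn2 within groups. Atf5 had -0.533 against Atf4 over the libraries and 0.3002 within groups. Atf3 and Ppp1r15a were close both ways, at 0.905 and 0.808. Within the co-cultures, replicate 4 was the lowest of its group in 8 of 8 lines for Sesn2, in 7 for Trib3 and Chac1, in 6 for Atf4 and in 4 or 5 for the other genes. In clone H, for instance, replicate 4 was the highest of the group for Ddit3 and the lowest for Atf4, Trib3, Chac1, Sesn2, Ppp1r15a, Atf3 and Asns.

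**Figure D4:**
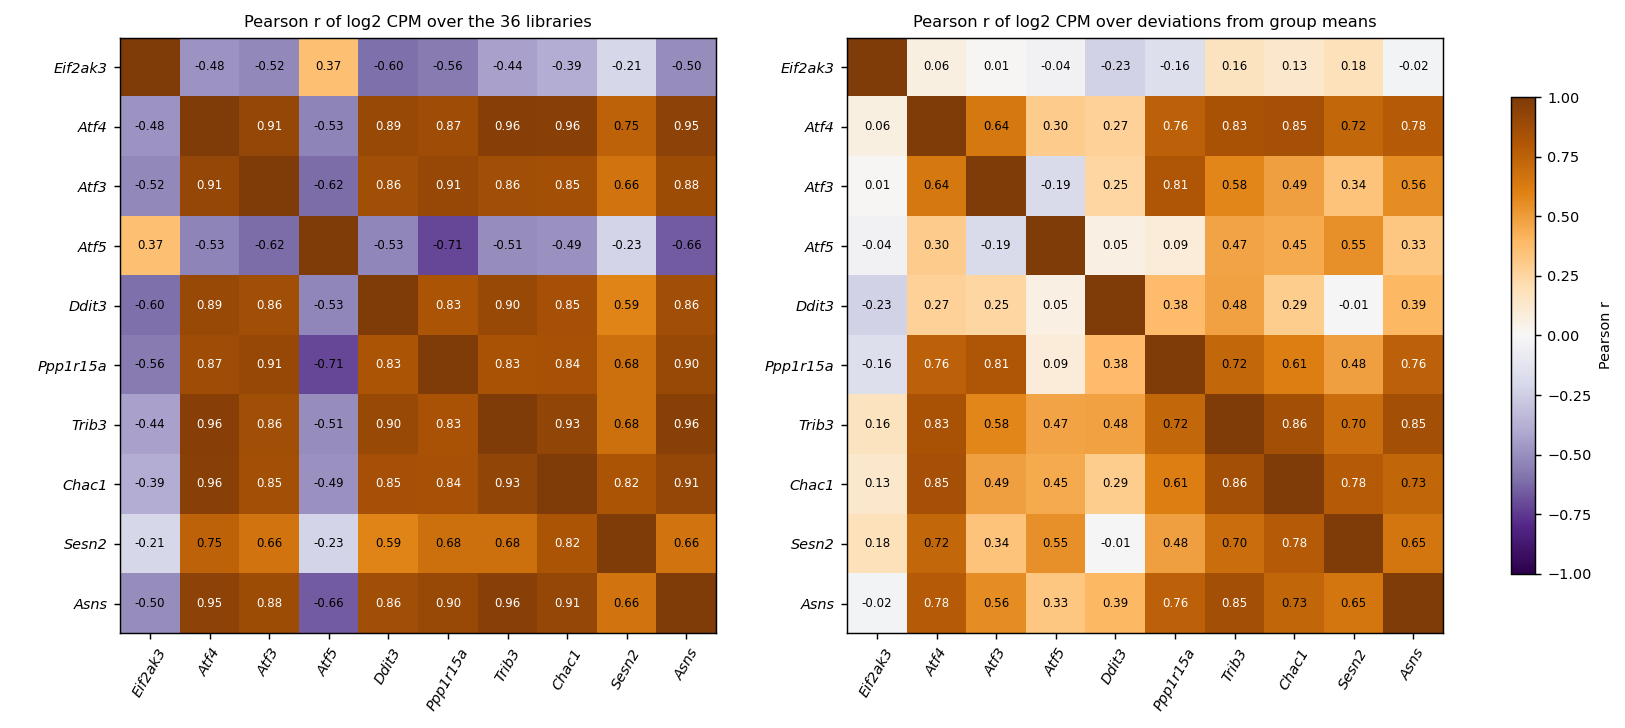
Pearson r of log2 CPM between each pair of the 10 genes, over the 36 libraries (left) and over deviations from group means (right). Atf5 is negative against the ATF4-linked genes on the left and mostly positive on the right, and Ddit3 against Atf4 is 0.892 on the left and 0.268 on the right.

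Genes outside the 10 with the most similar pattern were ranked by the same correlation among 9429 genes with a mean of at least 10 CPM. For Asns they were Eif4ebp1, a translation repressor (r = 0.982), Gars (0.981) and Yars (0.976), both tRNA synthetases, Got1, the cytosolic aspartate aminotransferase (0.979), and Slc3a2, the shared heavy chain of amino acid transporters (0.977). Within groups they kept r from 0.856 to 0.945. For Atf4 they were Slc3a2, Hspa9, Eif4ebp1, Nfe2l1 and Gpt2, from 0.972 to 0.953. For Atf3 the values were lower, from 0.925 with Pvr to 0.909 with Slc3a2, with Stambpl1, Gpt2 and Mapk6 between.

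The wider response was read through gene lists. Their counts stand beside 10.4% to 30.5% of all genes called higher and 8.69% to 28.9% called lower, depending on the line. A count of 1 or 2 in a short list can lie near these shares. Of 28 other genes known as ATF4 targets (amino acid transporters, serine and one-carbon enzymes, tRNA synthetases, secreted factors), 27 were higher with clone V, 26 with clone H, 24 with KPC1 and 22 with clone T, and 0 were lower with any of these lines. With clone M, 14 were lower and 2 higher. With clones E, K and N the numbers were 6, 3 and 7 higher and 2, 1 and 0 lower. The median log2 fold changes of the list were 1.22, 1.05, 1.03 and 0.82 with clone V, clone H, KPC1 and clone T, and -0.55 with clone M, where the median of all genes was within 0.02 of 0. Trib1, a pseudokinase related to Trib3, had the largest called value over the mean of the 7 clones, 2.05 (adjusted p = 2.15e-06). It was higher with all 8 lines, clone M included, at 1.47 to 2.86. Sars, a tRNA synthetase, had the smallest, 0.27 (adjusted p = 0.00591), and ran from -0.50 with clone M to 0.98 with clone V.

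The 4 eIF2 kinases did not move together. Eif2ak4, which encodes GCN2, the sensor of uncharged tRNA, was higher with clones E, H, N, T and V and with KPC1, by 0.30 to 0.67, and was not called with clones K and M (0.18 and 0.14). Eif2ak2, the kinase activated by double-stranded RNA, was lower with clones K, M and T, by -0.65 to -0.84, and Eif2ak1, the haem-regulated kinase, with clone H (-0.23) and KPC1 (-0.24). Impact, an inhibitor of GCN2, was lower with clones M, N, T, V and KPC1, by -0.36 to -0.82. Dnajc3, an inhibitor of PERK, was lower with clones H, N and T and with KPC1, by -0.20 to -0.37. Of Oma1 and Dele1, which relay mitochondrial stress to the haem-regulated kinase, Oma1 was lower with clones H, T and V and with KPC1 (-0.72 to -0.81), and Dele1 higher with clones H and V and KPC1 (0.20 to 0.25) and lower with clones K and N (-0.33 and -0.29). In all, 7 of 8 listed genes were tested, and 0 to 2 were higher and 0 to 4 lower with each line.

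The next list held 11 genes, for subunits of eIF2, its exchange factor eIF2B and the phosphatases, and for the separate factor eIF2A (Eif2a). Of these, 9 were higher with clone V, 7 and 6 with clones H and T and 8 with KPC1. With clones E, K, M and N 1 to 3 were higher, and 0 to 2 were lower with any line. Eif2b2 (0.62, adjusted p = 2.28e-07) and Eif2b5 (-0.34, adjusted p = 0.00126), both eIF2B subunits, were the extremes of the called values over the 7 clones. Among 6 bZIP partners of ATF4, Cebpb was higher with all lines but clones K and M, at 0.66 to 1.22, and Cebpd fell with clones H, T, V and KPC1, by -1.08 to -1.39, but rose with clone N (0.77). The list gave 0 to 3 higher and 0 to 1 lower with each line.

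Other genes of the unfolded protein response, which runs beside the integrated stress response in the endoplasmic reticulum, gave 10 of 13 higher both with clone V and with KPC1, 9 and 5 with clones H and T, against 1, 0, 0 and 4 with clones E, K, M and N, and 0 to 1 lower with any line. Atf6, a membrane-bound factor of this response, had the largest called value over the 7 clones (0.92, adjusted p = 1.53e-05) and Dnajb9, a chaperone, the smallest (0.22, adjusted p = 0.0316). With clone M, where 6 of the 10 stress genes fell, 0 of these 13 changed at an adjusted p under 0.05.

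Of 6 tested enzymes of asparagine and aspartate, Got1, which supplies aspartate in the cytosol, was called with the same lines as Asns. It was higher with clones H, T and V and with KPC1, by 1.06 to 1.43, and lower with clone M, by -0.55. Got2, the mitochondrial form, was lower with 7 of 8 lines, by -0.40 to -0.61, and not called with clone V (-0.19, adjusted p = 0.0648). Glul, which makes glutamine, was higher with 6 of 8 lines, by 0.47 to 0.94, clone M among them. The list gave 0 to 4 higher and 1 to 3 lower with each line. Among 7 p53 targets and sestrins, 1 to 5 were higher and 0 to 2 lower. Only 1 was higher with each of clones K, M and N, where 10.4%, 12.2% and 19.7% of all genes were. Cdkn1a, a cell cycle inhibitor, led the list at 0.58 over the 7 clones (adjusted p = 0.00861).

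**Figure D5:**
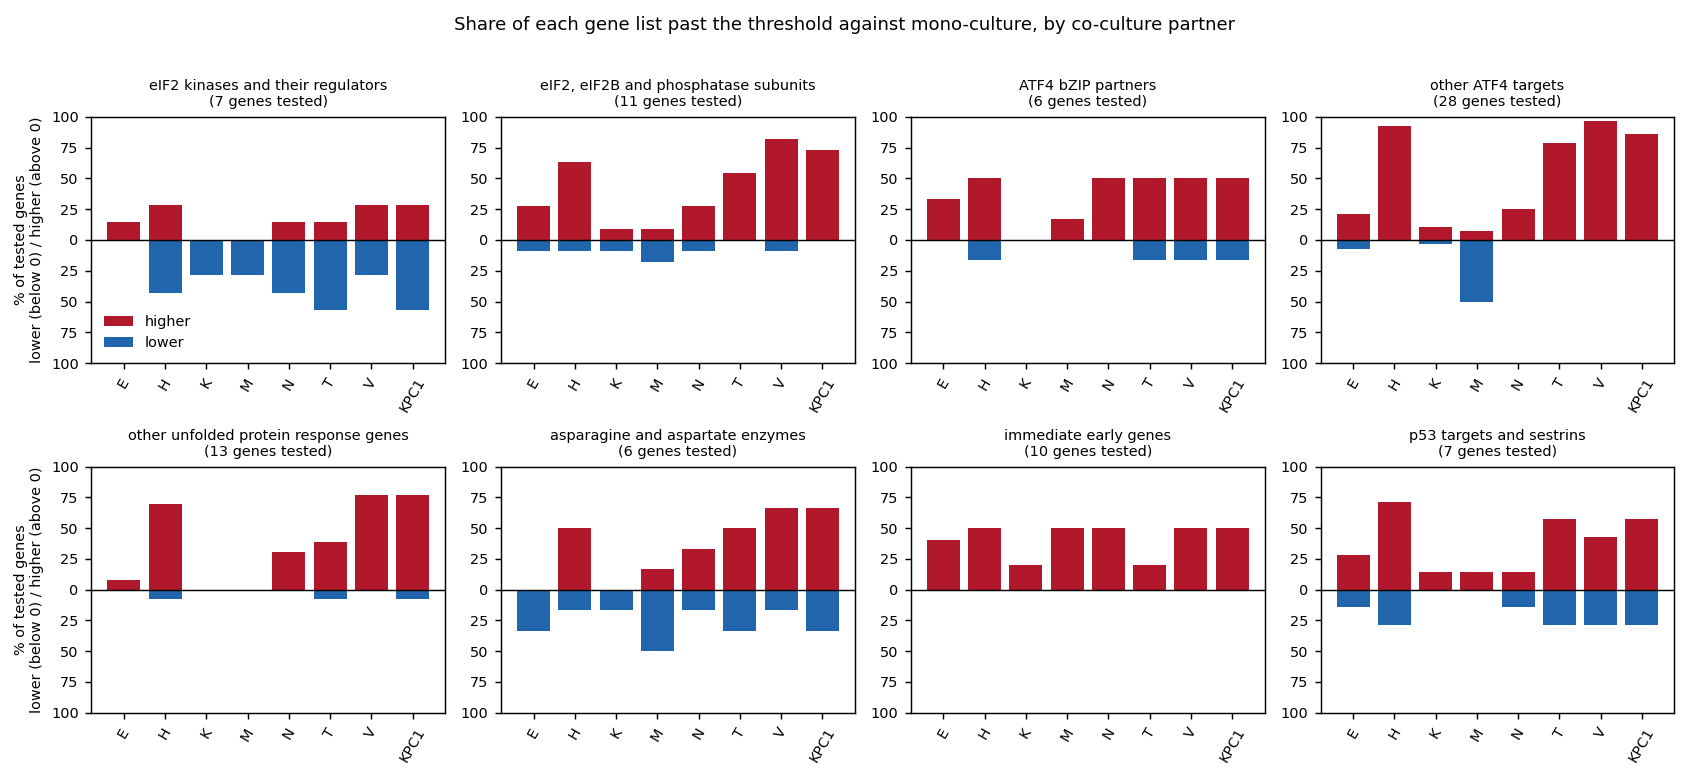
Share of each of 8 gene lists called higher (above 0, red) or lower (below 0, blue) against mono-culture, in percent of the genes tested, for the 8 co-cultures. The other ATF4 targets reach 27 of 28 higher with clone V and 14 of 28 lower with clone M, while the unfolded protein response genes have no called gene with clone M.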

How the data were processed

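Poly(A) libraries from 200 ng of total RNA (14 cycles of amplification, a strand-specific kit) were sequenced as 76 bp read pairs. The submitters' processing notes name STAR, featureCounts, edgeR and the mouse build mm10. Versions, the annotation and the strand setting of counting are not given in the sources used here. The authors deposited raw counts per gene, without normalization, and RPKM values, which correct for gene length and library size. All tests used the counts, and RPKM served to compare levels between genes and for limma as an alternative. Replicates were not pooled.

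Library totals were 12532122 to 21985538 counts (18177806 ± 2418484, SD), and TMM factors 0.957 to 1.07. Over 54 pairs of libraries of the same group the lowest chi-square per degree of freedom was 5.53, so no 2 libraries of a group agreed within sampling noise. Genes were filtered with filterByExpr, scaled by TMM and fitted with edgeR 4.0.16 (robust quasi-likelihood, 1 coefficient per group, all 36 libraries) in R 4.3.3, with Benjamini-Hochberg adjustment over 14439 genes and a threshold of 0.05. Contrasts were each co-culture, or the mean of the 7 clones, against mono-culture, an F-test among the 7 clones, and neighbouring groups in the order of each gene's mean, an order set by the same libraries. CPM are TMM-scaled. The model code was tested on simulated data. DESeq2 1.42.0, limma 3.58.1, Python 3.11.15, pandas 2.3.3 and matplotlib 3.10.9 were also used. Alternatives were DESeq2, RLE scaling, no scaling, both filters, a replicate block, limma on RPKM with a pseudocount of 1 or 0.1, a threshold of 0.1, only the 8 libraries compared, and leaving out each library.

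The 10 genes and all gene lists were chosen with earlier results of these data known. All 10 were named. Of each list, the genes with the highest and the lowest value of the mean over clones among those past the threshold were named, besides all genes of the kinase list and Ppp1r15b, and the 5 genes most like Asns, Atf4 and Atf3. Gene positions and promoters are from GRCm38, the assembly of mm10.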

Additional observations from a re-analysis of the deposited data

Results flagged for a closer look

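A library stood apart from the other 3 of its group in 6 of 90 sets of 4 libraries, where chance gives about 4.5, by the gap to the nearest library as a share of the group's range (above Dixon's 95% critical value for 4 samples). These were Atf4 in clone K replicate 4 (0.852, low), Ddit3 in KPC1 replicate 2 (0.922, high), Atf5 in KPC1 replicate 2 (0.909, high), Chac1 in mono-culture replicate 1 (0.857, low), Chac1 in KPC1 replicate 2 (0.882, high) and Asns in clone E replicate 1 (0.881, high). KPC1 replicate 2 accounts for 3 of the 6.

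The difference from mono-culture depended on the clone for 9 of the 10 genes by the edgeR quasi-likelihood F-test among the 7 clones, which called 67.5% of all genes tested. The adjusted p was 4.4e-11 for Ddit3, 3.48e-10 for Asns, 1.51e-09 for Atf4, 3.87e-09 for Trib3 and 7.21e-09 for Chac1. It was 1.93e-08 for Ppp1r15a, 1.24e-07 for Atf3, 8.77e-07 for Atf5 and 0.000803 for Sesn2.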

How the results depend on the processing

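No alternative moved the number of all genes called in any comparison by over 1.5 times. Of the 10 genes, the number higher with clone N, 0 as reported, was 1 with DESeq2, with the replicate block and at a threshold of 0.1, and 2 with only the 8 libraries compared, which also gave 1 higher with clone E. The genes gained with only the 8 libraries compared were Ppp1r15a with clones E and N, Asns with clone N, and Atf3 and Sesn2 with clone T. Atf3 was also gained as lower with clone E. The number lower with KPC1 was 2 instead of 1 with DESeq2, RLE scaling, no scaling, at least 10 counts in every library, limma on log2(RPKM + 1) or log2(RPKM + 0.1), and a threshold of 0.1. The number lower with clone V was 2 instead of 1 with the same settings other than DESeq2 and RLE scaling. The gene gained was Eif2ak3 with both lines. The number lower with clone K was 0 instead of 1 with no filter. With clone T, Atf4 was not called with no scaling, with at least 10 counts in every library or in either limma fit. Ddit3 with clone T was not called with no scaling or in either limma fit. The cause was not tested. Same-numbered libraries of different co-cultures had correlations of their deviations from -0.519 to 0.693 (median 0.143), all over 0.1 in 3 of 28 pairs of groups and in 0 of 8 with mono-culture. The samples were therefore not treated as paired, and the labels do not say what a number marks. That 23 of 32 libraries correlated best with their own number is a hint from the data that co-culture libraries of 1 number share something. The sample titles also number the co-culture libraries replicate by replicate, with the mono-culture libraries in a block after them. With the replicate block Asns was called with clone N (adjusted p = 0.0275), and no other call of the 10 genes against mono-culture changed.

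Direction changed only for values not called. Chac1 with clone K was -0.012 with no scaling, -0.035 with the replicate block, and -0.0853 and -0.092 in the limma fits with pseudocounts of 1 and 0.1. Eif2ak3 with clone K was -0.0288, -0.0253 and -0.0283, and with clone M -0.0114, -0.0108 and -0.0121, with no scaling and in those 2 limma fits. Trib3 with clone N was 0.00625 with only the 8 libraries compared.

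Leaving out each library gave ranges of log2 fold change that crossed 0 for Asns with clone E (-0.0305 to 0.311) and clone K (-0.421 to 0.0267), Atf4 with clone N (-0.177 to 0.00547) and the mean of clones (-0.0339 to 0.134), and Chac1 with clone E (-0.232 to 0.0967), clone K (-0.133 to 0.287) and clone N (-0.198 to 0.0943). Others were Sesn2 with clone E (-0.159 to 0.0677) and clone N (-0.217 to 0.0721), Trib3 with clone N (-0.166 to 0.0758) and the mean of clones (-0.0272 to 0.17), and Eif2ak3 with clone K (-0.00848 to 0.0599), clone M (-0.0302 to 0.0365), clone N (-0.083 to 0.0456) and clone T (-0.0582 to 0.00952). Genes higher numbered 3 to 6 with clone T, 0 to 1 with clone N and 1 to 2 for the mean of clones. Genes lower numbered 1 to 2 with KPC1, 0 to 1 with clone K and 1 to 2 with clone V. Called steps between neighbouring groups ran from 0 to 2 for Asns, Atf5 and Ddit3, 1 to 2 for Atf4, Chac1 and Trib3, and 0 to 1 for Ppp1r15a and Sesn2, and stayed at 0 for Atf3 and Eif2ak3.

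Depth left the scarcest of these genes, Atf3, with at least 33 counts in each library.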
